A study of Mus musculus with 21 samples.

Results

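This account covers 30 marker genes of cells other than nephron progenitors, 11 of endothelial cells, 12 of leukocytes and 7 of erythroid cells, among 18193 genes measured. The members were named in a list made for this work, and where a gene had several probe sets, the one brightest on average across the 21 arrays was read. All 30 had a probe set with a single gene name. The question put to them was which traces of such cells the sorted progenitors carried and what became of those traces in culture.

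Nephron progenitors, which build the filtering units of the kidney, were sorted by green fluorescent protein from kidneys of E16.5 mouse embryos of mixed background strain. They carried a Six2-GFPcre bacterial artificial chromosome transgene, in which the Six2 promoter drives the fluorescent Cre recombinase, so every group shared it. Each of 21 samples held 40000 cells, the medium was DMEM with 10% fetal bovine serum, and BIO, an inhibitor of the kinase GSK3 that turns on Wnt/beta-catenin signalling, was given at 4 µM against an equal volume of its solvent DMSO. The 7 groups of 3 arrays were aggregates kept 24 h in BIO and then 24 h in DMSO (BIO-then-DMSO aggregates), aggregates kept 48 h in BIO, aggregates kept 24 h in BIO, aggregates kept 24 h in DMSO, dispersed cells kept 24 h in BIO, dispersed cells kept 24 h in DMSO, and fresh cells taken straight from the sort. No group was kept for 48 h in DMSO alone, so time in culture and treatment cannot be told apart between 48-h and 24-h groups, while the 2 groups at 48 h differ only in the second day's treatment. The labels call the 3 arrays biological replicates without saying whether litters, sorts or cultures were separate, so a p-value here sets a difference against array-to-array spread alone, and that spread may be technical.

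Blood vessels, macrophages and red cells all reach the nephron-forming zone of the embryonic kidney. Endothelial cells are told by junction proteins and by receptors for vascular growth factors. Resident macrophages are told by the colony-stimulating factor receptor, complement C1q and the leukocyte phosphatase CD45, and red cell precursors by the globins and the enzymes that make haem.

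The promoters of the genes on which the results turn are shown first, from the RefSeq table of build GRCm38.p6, each running from 250 bases before to 50 bases after the transcription start, 5′ to 3′ on the gene's strand. Alas2 lies at chrX:150547167-150547466 (plus strand), Hba-a1 at chr11:32283422-32283721 (plus strand) and Hba-a2 at chr11:32296242-32296541 (plus strand). Tek lies at chr4:94739039-94739338 (plus strand), Flt1 at chr5:147725962-147726261 (minus strand) and C1qb at chr4:136886151-136886450 (minus strand). The table held 21 of the 30 members. In culture, Alas2 and the probe sets common to Hba-a1 and Hba-a2 read lower, while the probe set for Hba-a1 alone was not called. In these erythroid genes, capitals mark the GATA motif (AGATAA or AGATAG or TGATAA or TGATAG) and CACCC. In Tek and Flt1, which were high after 48 h of BIO, they mark the same GATA motif, the ETS core AGGAAG and the TCF/LEF core CTTTGA. In C1qb they mark GAGGAA, the core of the macrophage factor PU.1, which shares 5 letters with AGGAAG. Both strands were searched.
Alas2: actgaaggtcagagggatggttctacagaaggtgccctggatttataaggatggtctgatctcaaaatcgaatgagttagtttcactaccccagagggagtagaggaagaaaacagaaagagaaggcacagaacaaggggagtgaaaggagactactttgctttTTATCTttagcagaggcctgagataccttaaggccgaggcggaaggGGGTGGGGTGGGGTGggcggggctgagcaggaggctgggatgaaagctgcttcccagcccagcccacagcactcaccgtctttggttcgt
Hba-a1: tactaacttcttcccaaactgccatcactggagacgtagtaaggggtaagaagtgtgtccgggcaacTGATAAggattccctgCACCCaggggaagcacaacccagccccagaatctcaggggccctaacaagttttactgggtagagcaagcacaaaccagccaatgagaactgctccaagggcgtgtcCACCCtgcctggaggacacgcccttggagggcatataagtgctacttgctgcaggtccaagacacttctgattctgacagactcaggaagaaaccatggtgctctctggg
Hba-a2: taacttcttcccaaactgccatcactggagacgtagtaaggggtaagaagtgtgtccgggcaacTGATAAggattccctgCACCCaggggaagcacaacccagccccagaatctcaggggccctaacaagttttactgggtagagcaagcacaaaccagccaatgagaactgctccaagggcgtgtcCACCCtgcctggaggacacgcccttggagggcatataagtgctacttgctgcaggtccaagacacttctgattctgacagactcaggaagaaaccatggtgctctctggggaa
Tek: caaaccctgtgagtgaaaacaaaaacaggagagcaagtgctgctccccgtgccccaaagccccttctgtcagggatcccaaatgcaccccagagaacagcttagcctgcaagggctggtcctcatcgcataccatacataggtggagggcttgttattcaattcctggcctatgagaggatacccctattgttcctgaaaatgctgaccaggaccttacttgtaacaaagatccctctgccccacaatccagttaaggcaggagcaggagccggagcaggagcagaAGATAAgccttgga
Flt1: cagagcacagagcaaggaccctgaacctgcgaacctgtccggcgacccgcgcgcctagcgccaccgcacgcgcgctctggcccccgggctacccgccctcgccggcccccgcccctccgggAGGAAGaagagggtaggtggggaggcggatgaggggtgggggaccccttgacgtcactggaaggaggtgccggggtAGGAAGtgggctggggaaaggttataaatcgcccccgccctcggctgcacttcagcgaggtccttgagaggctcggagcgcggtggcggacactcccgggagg
C1qb: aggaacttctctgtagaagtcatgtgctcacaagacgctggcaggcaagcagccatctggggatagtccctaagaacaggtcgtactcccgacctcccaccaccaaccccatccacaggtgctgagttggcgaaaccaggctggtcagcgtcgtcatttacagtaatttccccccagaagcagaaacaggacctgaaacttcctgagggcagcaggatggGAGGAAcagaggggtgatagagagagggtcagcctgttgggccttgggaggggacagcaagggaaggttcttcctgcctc
Alas2 held 1 GATA match, starting at position -86 from the transcription start, and 3 CACCC matches at -40, -35 and -30, all on the opposite strand. The windows of Hba-a1 and Hba-a2 shared an unbroken stretch of 297 of their 300 bases, each with 1 GATA match and 2 CACCC matches. Tek held 1 GATA match at position 37 and neither other motif, Flt1 held 2 ETS matches at -129 and -53, and C1qb held 1 PU.1 core at -30. Over 27025 promoters of the same length, 30.2% held a GATA match, 56.7% a CACCC, 35.1% an AGGAAG, 16.2% a CTTTGA and 28.3% a GAGGAA. Among members in the table, GATA matches stood in 4 of 5 erythroid, 3 of 7 endothelial and 3 of 9 leukocyte promoters. In the same order of cell types, CACCC stood in 4 of 5, 5 of 7 and 6 of 9, AGGAAG in 3 of 5, 5 of 7 and 6 of 9, CTTTGA in 1 of 5, 1 of 7 and 1 of 9 and GAGGAA in 3 of 5, 4 of 7 and 6 of 9.

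Values are signal intensities, which rank arrays for one probe set but not one gene against another. They were quantile normalised, and differences are on the log2(signal + 1) scale from limma, with p-values adjusted by Benjamini-Hochberg over all 18193 genes and called below 0.05. A signal of 41.8, below which 95% of the 27 probe sets for bacterial control genes would fall, stood for background, and where one group's mean lay below it the fold is given as "at least". Each array had 75.97 to 79.6% of genes above background, and arrays of a group correlated at 0.970 to 0.981. Six2 was 407 to 5171 in culture, against 9269.6, 8752 and 8565 in fresh cells, and Cited1, another progenitor gene, was at most 30.9 in culture, against 201, 114 and 116 in fresh cells. Eya1 was 1107 to 4459 in culture, against 7708 to 8279 in fresh cells. The fresh cells also carried stromal signal, with all 8 listed stromal genes above background, Foxd1 at 2084 to 2126 and Pdgfrb at 576 to 769, and the ureteric genes Ret and Wnt11 read 95.2 to 112 and 133 to 182. The 3′ beta-actin control read 2669 to 5409.7 in aggregates kept 24 h in BIO, below the 6344 of the lowest array of any other group.

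Of the 30 members, 20 had a mean above background in fresh cells, 12 in all 7 groups and 7 in none. The 7 were Tie1, C1qa, C1qc, Aif1, Hbb-bh1, Epb42 and the Hba-a1 probe set, although single arrays of C1qa, Hbb-bh1 and Hba-a1 read above it. Each fresh array had 20 to 22 of the 30 members above background, where 75.97 to 77.6% of all genes were. Being above it is therefore not by itself a sign of other cells. By group mean, Alas2 and Slc4a1 were above background only in fresh cells, and Flt1, Pecam1 and Fcer1g only in some cultured group. Against fresh cells, 14 members were called in at least 1 of 6 comparisons and 16 in none, and Ramp2 and Alas2 were called lower in all 6. The matching shares of all genes over the 6 comparisons were not counted, so these counts have no background. In single comparisons 25.3 to 33.7% of all genes were called. All 6 comparisons share the same 3 fresh arrays. In a bulk sample, fewer cells of a type and less RNA per cell cannot be told apart.

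BIO-then-DMSO aggregates had 0 members higher and 7 lower than fresh cells, where 25.3% of all genes were called. Aggregates kept 48 h in BIO had 4 higher and 9 lower, against a background of 33.4%. Aggregates kept 24 h had 1 higher and 5 lower in BIO (background 33.7%), and 1 higher and 5 lower in DMSO (background 32.9%). Dispersed cells had 2 higher and 9 lower in BIO (background 25.9%), and 1 higher and 8 lower in DMSO (background 33.2%). In that order the share of members called was 23.3, 43.3, 20, 20, 36.7 and 30%, on both sides of the background. The share called lower was 23.3, 30, 16.7, 16.7, 30 and 26.7%, where 12.1, 15, 11.8, 14.5, 13.3 and 18.3% of all genes were lower. Scaling mattered for the genes at large: for 24-h BIO aggregates against fresh cells, 48.95% of calls were higher with the deposited scaling and 64.9% with quantile normalisation, and the median of all genes was 0.04 and 0.18. For 24-h DMSO aggregates against fresh cells, 69.02% of calls were higher when arrays were centred on the median and 55.9% otherwise.

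**Figure D1:**
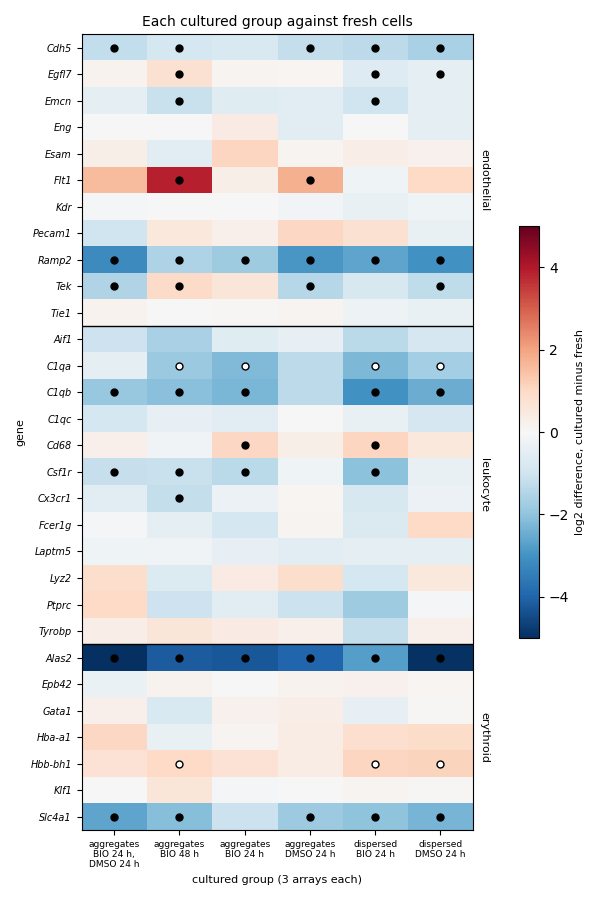
Log2 difference of each member gene between a cultured group and fresh cells (3 arrays each), with the 30 genes down the page in endothelial, leukocyte and erythroid blocks. Red is higher and blue lower in culture, colours stop at 5 in either direction, filled dots mark adjusted p below 0.05 and open dots mark calls with both groups below background. Ramp2 and Alas2 carry a dot in all 6 columns.

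Alas2, the erythroid enzyme that makes the first haem precursor, fell in all 6 cultured groups, and so did the brightest alpha-globin and the beta-globin probe set described after it. In aggregates Alas2 was 4.21, 5.19 and 3.35 after BIO then DMSO, 7.06, 8.64 and 10.7 after 48 h of BIO, 10.2, 3.51 and 14.6 after 24 h of BIO and 16.2, 6.42 and 10.3 after 24 h of DMSO. Dispersed cells read 35.5, 10.1 and 41.8 in BIO and 3.69, 4.65 and 6.09 in DMSO, and fresh cells 166, 166 and 190.2. No cultured array reached background, and each lay far below all 3 fresh arrays. Alas2 was at least 4.08-fold lower in each of the 6 groups, with log2 differences of -5.07 to -2.75 and adjusted p = 5.67e-07 to 0.000361. The calls held without any single array, with a log2 difference of -2.14 in dispersed BIO cells without their replicate 2. Alas2 was also called higher in dispersed BIO than dispersed DMSO cells (adjusted p = 0.00218; log2 difference 2.18, and 2.79 without dispersed BIO replicate 2) and lower in 24-h BIO aggregates than dispersed BIO cells (adjusted p = 0.0419), but both groups of each pair were below background and no fold is given. The aggregate difference was lost without dispersed replicate 1 or 3 or aggregate replicate 1 or 2 (adjusted p = 0.0644 to 0.189), and was -2.10 on the log2 scale without dispersed replicate 2, against -1.49 with all arrays.

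Slc4a1, the band 3 anion exchanger of the red cell membrane, fell in 5 of the 6. Aggregates read 24.7, 15.7 and 5.51 after BIO then DMSO, 21.1, 17.9 and 19.5 after 48 h of BIO, 21.2, 36.4 and 91.8 after 24 h of BIO and 14.6, 26.3 and 37.3 after 24 h of DMSO. Dispersed cells read 16.96, 25.99 and 21.5 in BIO and 11.9, 12.8 and 29.04 in DMSO, and fresh cells 199.98, 46.7 and 71.5. The fresh arrays were spread over a wide range, and 1 array of 24-h BIO aggregates, at 91.8, lay among them. Slc4a1 was called at least 2.07-fold lower in 5 of 6 groups (adjusted p = 0.00373 to 0.0305) and not in 24-h BIO aggregates (log2 difference -1.06 ± 0.60 SE, adjusted p = 0.196). Without the first fresh array the call was lost for 48-h BIO aggregates (log2 difference -1.52, adjusted p = 0.072), 24-h DMSO aggregates (log2 difference -1.21, adjusted p = 0.154) and dispersed BIO cells (log2 difference -1.41, adjusted p = 0.116). It was also lost in 24-h DMSO aggregates without their replicate 1 or 2 (adjusted p = 0.122 and 0.0591), and in dispersed BIO cells without replicate 1 or 3 (adjusted p = 0.073 and 0.054). The log2 difference without the first fresh array was -2.06 in BIO-then-DMSO aggregates and -1.75 in dispersed DMSO cells, still called. A second probe set of Slc4a1 gave 3.94 to 26.1 in culture, against 99.6, 60.5 and 58.03 in fresh cells, called lower in all 6 comparisons (log2 differences -3.56 to -2.49, p-values adjusted over 45101 probe sets of 1.28e-05 to 0.00047).

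The haemoglobin subunits were read best by probe sets that the annotation assigns to several genes, which the gene-level fit leaves out. They were picked after their values were seen, and their tests were adjusted over all 45101 probe sets. Of 3 probe sets common to Hba-a1 and Hba-a2, the adult alpha-globin genes, the brightest was far lower in culture. It read 168, 157 and 216 in BIO-then-DMSO aggregates and 447, 195 and 290.2 after 48 h of BIO. At 24 h it read 1367, 1001 and 1832 in BIO aggregates, 1119.5, 680.03 and 370.3 in DMSO aggregates, 2536, 1265 and 2319 in dispersed BIO cells and 846, 1099 and 1021 in dispersed DMSO cells. Fresh cells read 5651, 4670.1 and 4461. No cultured group overlapped the fresh cells, and both 48-h groups read below the 24-h BIO aggregates they followed. Against fresh cells the fall was 27.3-fold in BIO-then-DMSO aggregates (log2 difference -4.77 ± 0.38 SE, adjusted p = 2.03e-07), 16.6-fold after 48 h of BIO (log2 difference -4.06 ± 0.38 SE, adjusted p = 7.62e-07), and 2.51 to 7.46-fold at 24 h (adjusted p = 2.76e-05 to 0.0217). Compared with 24-h BIO aggregates, the second day lowered it by 7.57-fold with DMSO (adjusted p = 5.57e-05) and 4.62-fold with BIO (adjusted p = 0.000828). The difference between BIO and DMSO at 24 h was not called in aggregates (log2 difference 1.05 ± 0.38 SE, adjusted p = 0.0627) or dispersed cells (log2 difference 0.99 ± 0.38 SE, adjusted p = 0.0835). The other two gave larger log2 differences with a larger SE. One read 11.4, 93.9 and 177 in BIO-then-DMSO aggregates, 10.6 to 2059.9 in the other cultures and 4957, 3828 and 3879 in fresh cells, called lower in 3 of 6 comparisons (log2 differences -6.14 to -1.50). The second read 1.56, 3.84 and 4.23 in BIO-then-DMSO aggregates, 1.80 to 614 in the other cultures and 1774, 1323 and 1391 in fresh cells, called lower in 5 of 6 (log2 differences -8.53 to -2.10; at least 34.6-fold in BIO-then-DMSO aggregates). No cultured array of either overlapped the fresh ones.

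The adult beta-globin genes Hbb-bt, Hbb-bs, Hbb-b1 and Hbb-b2 share a probe set, which also fell. It was 359, 214 and 426 in BIO-then-DMSO aggregates, 421, 287 and 453 after 48 h of BIO, 1116, 1012 and 1274 in 24-h BIO aggregates and 642, 536 and 449 in 24-h DMSO aggregates. Dispersed cells read 1575, 778 and 1442 in BIO and 805, 669 and 728 in DMSO, and fresh cells 5108, 4734 and 5290.4. As for alpha-globin, the 48-h aggregates had the lowest means and the fresh cells the highest. Against fresh cells the falls were 4.16 to 15.7-fold (adjusted p = 4.40e-08 to 4.94e-05). In aggregates at 24 h the signal was 2.10-fold higher with BIO than with DMSO (log2 difference 1.07 ± 0.27 SE, adjusted p = 0.00996), and the groups did not overlap. The difference in dispersed cells was not called (log2 difference 0.72 ± 0.27 SE, adjusted p = 0.0804). For the shared globin probe sets no array was left out and no covariate was added. A probe set annotated to Hbb-b2 alone read 42.8 to 158 in culture and 259, 182 and 236 in fresh cells. Its 24-h BIO aggregates, at 145, 148 and 153, overlapped the DMSO aggregates, at 158, 108 and 110. Another for Hbb-b2 read 1.24 to 25.9 in culture, under background, and 112, 81.3 and 77 in fresh cells.

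The remaining erythroid members gave little. The Hba-a1 probe set that matches that gene alone read 11.4 to 60.5 over all 21 arrays, near or below background, and was called in no comparison, unlike the common alpha-globin probe set. Hbb-bh1, an embryonic beta-like globin, read 29.6, 38.9 and 32.6 after 48 h of BIO, 39.4, 26.7 and 42.5 in dispersed BIO cells, 41.05, 36.7 and 32.9 in dispersed DMSO cells and 11.4, 28.1 and 13.4 in fresh cells. Those 3 cultured groups were called higher than fresh cells (adjusted p = 0.0202 to 0.0379), but all lay below background and each call was lost without fresh array 1 or 3, without any of the 48-h arrays, without dispersed BIO replicate 1 or 3, and without dispersed DMSO replicate 1 (adjusted p = 0.0541 to 0.154 after 48 h of BIO, 0.0943 to 0.135 in dispersed BIO and 0.0645 to 0.0977 in dispersed DMSO cells). The other 3 groups read 16.4 to 46.8. Klf1 and Gata1, transcription factors that drive erythroid genes, read 25.04 to 125 and 8.84 to 75.5 with no call, and Epb42, a red cell membrane skeleton protein, read 4.82 to 12.1. As a group, 2 of 7 erythroid members were called lower than fresh cells in 5 comparisons and 1 in the sixth. These were 14.3 to 28.6% of the erythroid members, where 11.8 to 18.3% of all genes were lower. The median log2 differences of the erythroid members ran over -0.37 to 0.17, lowest after 48 h of BIO, against -0.03 to 0.18 for all genes.

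**Figure D2:**
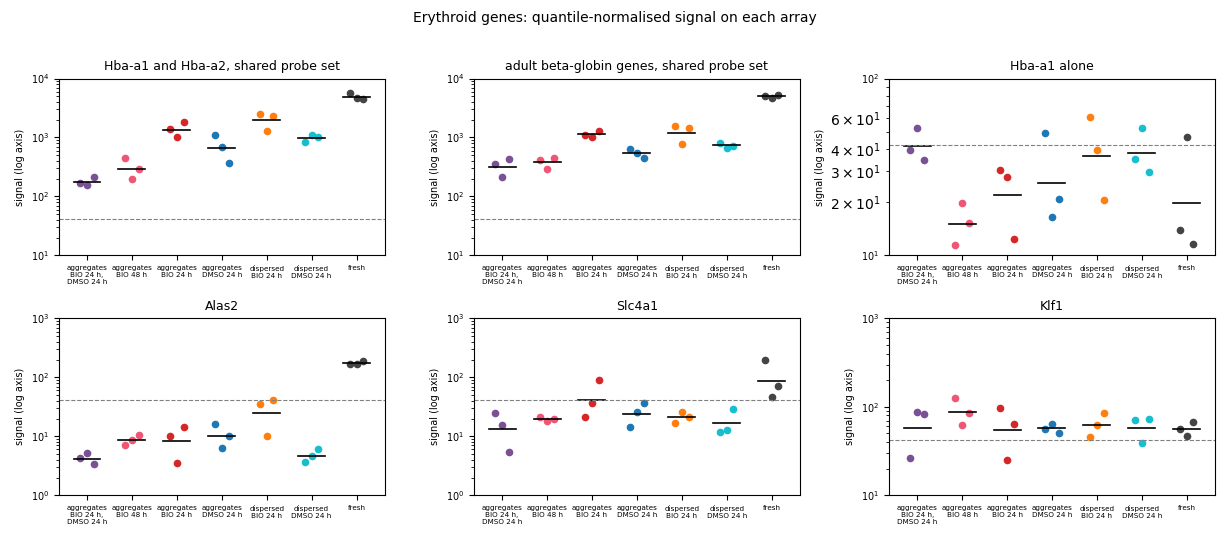
Quantile-normalised signal on a log axis for 6 erythroid probe sets, with 1 point per array, 7 groups of 3 arrays, a black bar at the mean of log2(signal + 1) and a dashed line at background. The fresh arrays stand highest for the shared globin probe sets, Alas2 and, apart from 1 array of 24-h BIO aggregates, Slc4a1, while Hba-a1 alone and Klf1 show no such order.

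Of 18 other erythroid genes measured, 1 to 3 (5.56 to 16.7%) were called lower and 2 to 4 higher than fresh cells in each comparison, where 11.8 to 18.3% of all genes were lower. Genes named here and from the further lists below are given for the comparison with their largest called difference from fresh cells. The change is therefore not shown to be particular to that group. Blvrb, biliverdin reductase B, read 6.20, 5.96 and 9.68 after 48 h of BIO and 215, 102 and 158 in fresh cells, at least 3.56-fold lower (log2 difference -4.23 ± 0.40 SE, adjusted p = 5.49e-07). Nfe2, a factor for globin genes, read 9.04, 8.22 and 2.62 in 24-h BIO aggregates and 76.3, 69.4 and 65.5 in fresh cells, at least 1.66-fold lower (log2 difference -3.36 ± 0.82 SE, adjusted p = 0.00466). Rhag, the Rh-associated glycoprotein of the red cell membrane, was higher, with 231, 290.1 and 220.3 in 24-h BIO aggregates and 36.3, 41.03 and 34.8 in fresh cells, at least 5.75-fold higher (log2 difference 2.69 ± 0.59 SE, adjusted p = 0.00218).

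Among endothelial members the clearest change was in Ramp2, the co-receptor that makes the adrenomedullin receptor and is needed for vessel integrity. It fell in all 6 cultured groups, and less where BIO was present in aggregates. Ramp2 read 319, 277 and 305 in BIO-then-DMSO aggregates, 800.1, 1092 and 930.04 after 48 h of BIO, 788, 934 and 678 in 24-h BIO aggregates and 418, 323 and 348 in 24-h DMSO aggregates. Dispersed cells read 487, 417 and 417 in BIO and 293, 297 and 409.6 in DMSO, and fresh cells 2933, 2605 and 2609.97. No cultured array came near the fresh ones, and the aggregates in BIO were above every other cultured array. Against fresh cells the falls were 2.90 to 9.02-fold, with adjusted p = 3.79e-10 to 1.08e-06. BIO gave a 2.20-fold higher level than DMSO in 24-h aggregates (log2 difference 1.13 ± 0.16 SE, adjusted p = 3.25e-05), and its replacement by DMSO a 3.11-fold lower level than 48 h of BIO (log2 difference -1.63 ± 0.16 SE, adjusted p = 9.90e-07). In dispersed cells the difference between BIO and DMSO was not called (log2 difference 0.42 ± 0.16 SE, adjusted p = 0.0569), and the interaction of BIO with aggregation was log2 difference 0.72 ± 0.22 SE, adjusted p = 0.146, also not called. Ramp2 was higher in 24-h BIO aggregates than in dispersed BIO cells (log2 difference 0.85 ± 0.16 SE, adjusted p = 0.00192). Once the 3′ beta-actin control was added to the fit, the difference of BIO aggregates was log2 difference 0.75, adjusted p = 0.0937 against DMSO aggregates, log2 difference 0.52, adjusted p = 0.308 against dispersed BIO cells, and log2 difference -0.96, adjusted p = 0.102 for BIO-then-DMSO against 24-h BIO aggregates (-1.40 ± 0.16 SE without it). A pair of probe sets annotated to both Ramp2 and its neighbour Vps25 did not show this fall, reading 468 to 1020.5 and 73.1 to 169 in culture, against 700.4 to 812 and 97.3 to 121 in fresh cells.

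Tek, the angiopoietin receptor Tie2 that steadies vessels, was high in aggregates kept in BIO. It read 36.7, 33.97 and 71 in BIO-then-DMSO aggregates, 199.7, 216 and 364 after 48 h of BIO, 202, 275 and 134 in 24-h BIO aggregates and 44.8, 42.5 and 54.8 in 24-h DMSO aggregates. Dispersed cells read 107, 44.9 and 82.2 in BIO and 56.1, 49.7 and 49.9 in DMSO, and fresh cells 146, 130.4 and 110.01. Each array of aggregates kept in BIO was above each of DMSO aggregates and of BIO-then-DMSO aggregates. Tek was 4.08-fold higher in 24-h BIO than in DMSO aggregates (log2 difference 2.03 ± 0.34 SE, adjusted p = 0.000216), and 5.51-fold lower in BIO-then-DMSO aggregates than after 48 h of BIO (log2 difference -2.46 ± 0.34 SE, adjusted p = 5.06e-05). Compared with 24-h BIO aggregates the level was 4.30-fold lower after the change to DMSO (adjusted p = 0.000268). Against fresh cells it was 2.83-fold lower in BIO-then-DMSO aggregates, 2.68-fold lower in DMSO aggregates and 2.44-fold lower in dispersed DMSO cells (adjusted p = 0.00349 to 0.00712). It was 1.95-fold higher than fresh after 48 h of BIO (adjusted p = 0.0379), a call lost without any of the 3 fresh arrays, or replicates 2 or 3 at 48 h (adjusted p = 0.0505 to 0.164). Tek was also higher in 24-h BIO aggregates than in dispersed BIO cells (log2 difference 1.40 ± 0.34 SE, adjusted p = 0.0111), a call lost without dispersed replicate 2 (log2 difference 1.05, adjusted p = 0.0575) or aggregate replicate 2 (log2 difference 1.15, adjusted p = 0.0563). With beta-actin added Tek was not called between BIO and DMSO aggregates (log2 difference 1.01, adjusted p = 0.304), and neither was BIO-then-DMSO against 24-h BIO (log2 difference -0.92, adjusted p = 0.515). BIO aggregates at 24 h were the group with the low beta-actin control.

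Flt1, VEGF receptor 1, was near background in fresh cells and high after 48 h of BIO. It read 26.1, 86.2 and 136 in BIO-then-DMSO aggregates, 368, 473 and 221 after 48 h of BIO, 41.3, 20.8 and 23.9 in 24-h BIO aggregates and 135, 77.1 and 46.2 in 24-h DMSO aggregates. Dispersed cells read 22.6, 12.5 and 23.1 in BIO and 40.03, 84.3 and 27.96 in DMSO, and fresh cells 16.4, 17.1 and 38.2. Only the 48-h BIO arrays stood clear of every other array. Flt1 was at least 7.90-fold higher after 48 h of BIO than in fresh cells (log2 difference 3.87 ± 0.58 SE, adjusted p = 6.92e-05), and at least 7.90-fold higher than after 24 h of BIO (adjusted p = 0.000307). The call against 24 h of BIO was lost with the Gapdh 3′ to 5′ ratio as a covariate (adjusted p = 0.105). That ratio was 6.20 to 9.57 in 48-h BIO aggregates and 11.4 to 15.2 in 24-h BIO aggregates. BIO-then-DMSO aggregates were 4.94-fold lower than 48-h BIO aggregates (log2 difference -2.30 ± 0.58 SE, adjusted p = 0.00893), a call lost without their replicate 1 (log2 difference -1.63, adjusted p = 0.052). It was also lost with the Gapdh ratio as a covariate and with only the groups compared. DMSO aggregates were called at least 1.85-fold higher than fresh cells (adjusted p = 0.0265), a call lost without fresh array 1 or 2, or DMSO replicate 1 or 2 (adjusted p = 0.0581 to 0.116). Another probe set of Flt1 gave 242, 374 and 308 after 48 h of BIO, 8.03 to 91.8 in the other cultures and 10.4, 6.96 and 18.96 in fresh cells (48-h BIO against fresh cells, log2 difference 4.64 ± 0.30 SE, p adjusted over 45101 probe sets 1.10e-08).

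Cdh5, VE-cadherin of the endothelial junction, fell in 5 of 6 groups. Aggregates read 42.8, 33.4 and 38.9 after BIO then DMSO, 48.8, 39.6 and 63.8 after 48 h of BIO, 74.2, 57.9 and 36.96 after 24 h of BIO and 33.7, 42.1 and 44.1 after 24 h of DMSO. Dispersed cells read 25.5, 45.96 and 40.97 in BIO and 17.2, 39.7 and 36.9 in DMSO, and fresh cells 108, 81.2 and 89.6. All 18 cultured arrays lay below all 3 fresh arrays. Cdh5 was at least 2.11 to 2.17-fold lower in the 4 groups below background (adjusted p = 0.000608 to 0.00674). It was 1.83-fold lower after 48 h of BIO (adjusted p = 0.0385), lost without any fresh array or 48-h replicate 1 or 2 (adjusted p = 0.0537 to 0.143), and not called after 24 h of BIO (log2 difference -0.75 ± 0.31 SE, adjusted p = 0.0711). With the mean over both Cdh5 probe sets, the differences of DMSO aggregates (log2 difference -0.39, adjusted p = 0.366) and dispersed BIO cells (log2 difference -0.73, adjusted p = 0.104) were not called.

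Egfl7, a protein secreted by endothelial cells, and Emcn, the surface sialomucin endomucin, moved modestly. Egfl7 read 317, 361 and 359 in BIO-then-DMSO aggregates, 459.9, 611 and 479 after 48 h of BIO, 329, 391 and 287 in 24-h BIO aggregates and 363, 253 and 363 in DMSO aggregates. Dispersed cells read 184, 203 and 200.1 in BIO and 219, 201 and 225 in DMSO, and fresh cells 345, 255 and 316. It was highest in aggregates after 48 h of BIO and lowest in dispersed cells. Against fresh cells it was 1.69-fold higher after 48 h of BIO (log2 difference 0.76 ± 0.16 SE, adjusted p = 0.00145) and lower by 1.55-fold in dispersed BIO and 1.41-fold in dispersed DMSO cells (adjusted p = 0.00705 to 0.0237). The call in dispersed DMSO cells was lost without fresh array 1 or 3, or replicate 2 of its own (adjusted p = 0.0711 to 0.103). Egfl7 was 1.70-fold higher in BIO aggregates than in dispersed BIO cells (adjusted p = 0.00435). That call was lost with the Gapdh 3′ to 5′ ratio or the beta-actin control as a covariate. Aggregates kept 48 h in BIO were 1.54-fold above those kept 24 h in BIO (log2 difference 0.62 ± 0.16 SE, adjusted p = 0.00998). BIO-then-DMSO aggregates were 1.48-fold below 48-h BIO aggregates (adjusted p = 0.0168). Those last 2 calls were lost without 48-h replicate 2 (adjusted p = 0.053 and 0.0912), and the second also without BIO-then-DMSO replicate 1 (log2 difference -0.51, adjusted p = 0.0681). With the mean over all Egfl7 probe sets no call remained for 48-h BIO (log2 difference 0.54, adjusted p = 0.0869) or dispersed BIO cells (log2 difference -0.43, adjusted p = 0.213) against fresh cells, for 48-h against 24-h BIO (log2 difference 0.28, adjusted p = 0.46) or for BIO-then-DMSO against 48-h BIO (log2 difference -0.45, adjusted p = 0.218).

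Emcn read 56.5, 24 and 43.04 after 48 h of BIO, 33.8, 53 and 42.03 in dispersed BIO cells and 78.97, 84.2 and 92.4 in fresh cells. It was at least 1.80-fold lower after 48 h of BIO (log2 difference -1.11 ± 0.26 SE, adjusted p = 0.00365) and 1.99-fold lower in dispersed BIO cells (log2 difference -0.99 ± 0.26 SE, adjusted p = 0.0101), the second lost without dispersed replicate 1 (log2 difference -0.84, adjusted p = 0.053). In the other 4 cultured groups Emcn read 40.5 to 73.97, with no call against fresh cells. Esam, an adhesion molecule of endothelial junctions, read 28.5, 163 and 195 after 48 h of BIO and 398, 233 and 311 in 24-h BIO aggregates, 3.13-fold lower (log2 difference -1.65 ± 0.49 SE, adjusted p = 0.0252). Esam's call was lost without 24-h replicate 1 or 3 (log2 difference -1.46, adjusted p = 0.0942; log2 difference -1.64, adjusted p = 0.0591). Without the first 48-h array, at 28.5, the difference was -0.78 and stayed called, and it turned to 0.23 with the Gapdh 3′ to 5′ ratio as a covariate. Esam read 135 to 162 in fresh cells and 106 to 216 in the other 4 cultured groups.

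Kdr, VEGF receptor 2, read 131 to 251 over all 21 arrays and was called in no comparison, with dispersed BIO cells against fresh cells at log2 difference -0.38 ± 0.17 SE, adjusted p = 0.121. Eng, the TGF-beta co-receptor endoglin, read 21.8 to 135, and Pecam1, the adhesion molecule CD31, 9.38 to 71.6, neither called in any comparison. Tie1, a receptor of the Tek family, stayed at 1.32 to 4.80, far under background. Endothelial members called in each comparison with fresh cells numbered 1 to 6 of 11 (9.09 to 54.5%), where 25.3 to 33.7% of all genes were called, and their medians lay -0.44 in dispersed DMSO cells, -0.01 after 48 h of BIO and 0.13 in 24-h BIO aggregates, against -0.03, 0.08 and 0.18 for all genes.

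**Figure D3:**
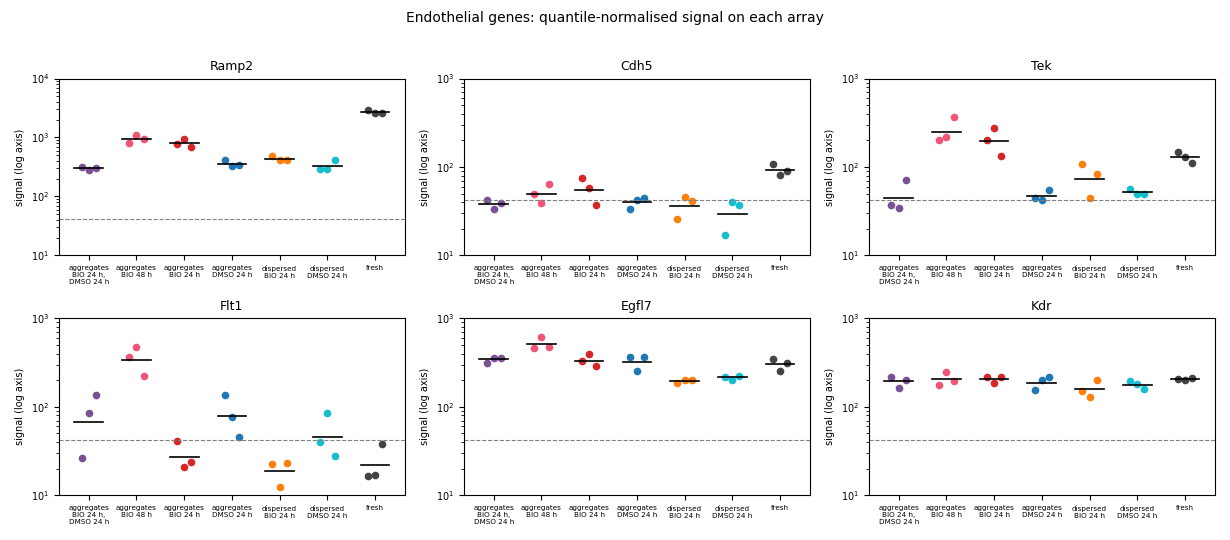
Quantile-normalised signal on a log axis for 6 endothelial genes, with 1 point per array, 7 groups of 3 arrays, a black bar at the mean of log2(signal + 1) and a dashed line at background. Ramp2 and Cdh5 are highest in fresh cells, Flt1 is highest after 48 h of BIO, Tek is high in aggregates kept in BIO, and Kdr has no called difference.

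Of 18 further endothelial genes, 3 to 6 (16.7 to 33.3%) were called lower and 0 to 1 higher than fresh cells in each comparison, where 11.8 to 18.3% of all genes were lower. Plvap, the diaphragm protein of fenestrated endothelium, read 16.1, 8.81 and 9.60 after 48 h of BIO and 261, 152 and 205 in fresh cells, at least 4.72-fold lower (log2 difference -4.06 ± 0.35 SE, adjusted p = 2.14e-07). Its highest value in culture was 32.0, under background. Erg, an ETS factor of endothelium, read 5.79, 1.10 and 2.99 after 48 h of BIO and 96.2, 44.9 and 55.2 in fresh cells, at least 1.47-fold lower (log2 difference -4.04 ± 0.58 SE, adjusted p = 5.02e-05). Fli1, an ETS factor of endothelium and blood, read 35.99, 7.99 and 22.54 after 48 h of BIO and 146, 84.8 and 117 in fresh cells, at least 2.67-fold lower (log2 difference -2.52 ± 0.35 SE, adjusted p = 3.50e-05). Ptprb, the endothelial phosphatase VE-PTP, named after its values were seen, went the other way, with 489, 481 and 661 after 48 h of BIO and 122, 82.3 and 111 in fresh cells, 5.15-fold higher (log2 difference 2.37 ± 0.18 SE, adjusted p = 3.45e-08), and was 6.60-fold lower in BIO-then-DMSO than in 48-h BIO aggregates (adjusted p = 1.48e-08).

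Among leukocyte members, Csf1r, the receptor that macrophages need for survival, fell in the 4 groups that had BIO. It read 318, 293 and 431 in BIO-then-DMSO aggregates, 382, 349 and 330.3 after 48 h of BIO, 287, 322 and 287 in 24-h BIO aggregates and 762, 550.4 and 656 in 24-h DMSO aggregates. Dispersed cells read 199, 154 and 204 in BIO and 502, 655 and 629 in DMSO, and fresh cells 899, 671 and 741. Each array of the 4 groups that had BIO lay below each fresh array and each DMSO array at 24 h. Against fresh cells Csf1r was 2.23-fold lower in BIO-then-DMSO aggregates, 2.16-fold lower after 48 h of BIO, 2.56-fold lower in 24-h BIO aggregates and 4.13-fold lower in dispersed BIO cells (adjusted p = 1.58e-07 to 7.82e-05). Neither DMSO group was called (log2 difference -0.23 ± 0.17 SE, adjusted p = 0.32 in aggregates; log2 difference -0.37 ± 0.17 SE, adjusted p = 0.109 in dispersed cells).

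BIO lowered Csf1r 2.18-fold against DMSO in aggregates (log2 difference -1.12 ± 0.17 SE, adjusted p = 7.60e-05) and 3.20-fold in dispersed cells (log2 difference -1.68 ± 0.17 SE, adjusted p = 9.85e-07), and these calls held without any single array. The interaction was log2 difference 0.55 ± 0.24 SE, adjusted p = 0.347, not called. BIO aggregates were 1.61-fold higher than dispersed BIO cells (adjusted p = 0.0113), a call lost without dispersed replicate 2 (log2 difference 0.56, adjusted p = 0.0579) and with the deposited scaling (log2 difference 0.45, adjusted p = 0.0946). That call was also lost with the mean of all Csf1r probe sets, and with the Gapdh ratio or the beta-actin control as a covariate. The change to DMSO on the second day gave no called difference from 48 h of BIO (log2 difference -0.04 ± 0.17 SE, adjusted p = 0.899). A second probe set of Csf1r was also lower in BIO than in DMSO aggregates (log2 difference -1.91, p adjusted over 45101 probe sets 0.000171). It read 88.9, 68.2 and 32.2 in 24-h BIO aggregates and 204, 214 and 246 in DMSO aggregates. In dispersed BIO cells it read 91.97, 66.9 and 61.3, not below the BIO aggregates. A further one was not lower with BIO, with 169, 189 and 190.4 in BIO and 114, 109 and 152 in DMSO aggregates (log2 difference 0.56 ± 0.31 SE, adjusted p = 0.26, adjusted over the same probe sets).

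C1qb, a chain of complement C1q made by macrophages, fell in 5 of 6 groups. Aggregates read 12.6, 40.01 and 117 after BIO then DMSO, 34.1, 56.8 and 19.98 after 48 h of BIO, 22.51, 27.1 and 45.3 after 24 h of BIO and 37.4, 69.8 and 83.7 after 24 h of DMSO. Dispersed cells read 14.2, 10.6 and 34.8 in BIO and 17.2, 33.6 and 31.1 in DMSO, and fresh cells 228, 97.5 and 150.01. Cultured arrays lay below the fresh ones apart from 1 BIO-then-DMSO array, at 117. C1qb was at least 2.50 to 3.51-fold lower in 5 groups (adjusted p = 0.00236 to 0.0425) and not called in DMSO aggregates (log2 difference -1.30 ± 0.65 SE, adjusted p = 0.146). The 2 dispersed groups kept the call without any single array. For 24-h and 48-h BIO aggregates it was lost without fresh array 1 (adjusted p = 0.054 and 0.077), 24-h replicate 1 (log2 difference -2.06, adjusted p = 0.0508) or 48-h replicate 3 (log2 difference -1.74, adjusted p = 0.0821). For BIO-then-DMSO aggregates it was lost without fresh array 1 or 3 or their own replicate 1 or 2 (adjusted p = 0.0865 to 0.221), and without replicate 3 the log2 difference was -2.67. With the Gapdh ratio or the beta-actin control as a covariate, the calls of 24-h BIO and BIO-then-DMSO aggregates were lost. The second was also lost with the mean of all C1qb probe sets. Another probe set read 0.78 to 94.4 in culture and 150.75, 74.6 and 85.5 in fresh cells. It was 33.03, 66.3 and 42.3 in 24-h DMSO and 0.9, 1.53 and 4.52 in 24-h BIO aggregates. A further one read 1.47 to 19.2 in culture and 51.4, 5.21 and 7.87 in fresh cells.

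C1qa, another C1q chain, read 11.1, 76.01 and 18 in BIO-then-DMSO aggregates. It was 13.2, 9.25 and 5.49 after 48 h of BIO, 6.44, 6.47 and 7.14 in 24-h BIO aggregates, 9.62, 11.5 and 21.97 in 24-h DMSO aggregates, 7.14, 4.63 and 8.21 in dispersed BIO cells, 8.62, 11.1 and 10.9 in dispersed DMSO cells and 63.96, 19.8 and 33.3 in fresh cells. Group means all lay below background, so no fold is given. It was called lower than fresh cells in 48-h BIO aggregates, 24-h BIO aggregates and both dispersed groups (adjusted p = 0.00492 to 0.0249). The 48-h call was lost without fresh array 1 or 48-h replicate 3 (adjusted p = 0.074 and 0.0619), and the dispersed DMSO call without fresh array 1 or 3 or any of its own arrays (adjusted p = 0.0502 to 0.124). C1qa was called higher in BIO-then-DMSO than in 24-h BIO aggregates (adjusted p = 0.0265), a call lost without any of the 24-h BIO arrays or BIO-then-DMSO replicate 2 (adjusted p = 0.0522 to 0.13), with a log2 difference of 0.98 without BIO-then-DMSO replicate 2. C1qc, a further chain, and Aif1, a macrophage calcium-binding protein, stayed at 3.10 to 17.4 and 2.93 to 36.2 on all arrays, below background and without a call.

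Lyz2, the myeloid lysozyme, was low in dispersed BIO cells, at 36.05, 98.05 and 95.8, against 172, 236 and 167 in dispersed DMSO cells, a 2.69-fold difference (log2 difference -1.43 ± 0.36 SE, adjusted p = 0.00632). Aggregates read 163, 211 and 401 after BIO then DMSO, 60.4, 109.8 and 79.4 after 48 h of BIO, 148, 204 and 176 after 24 h of BIO and 218, 289.9 and 226 after 24 h of DMSO, and fresh cells 133, 118 and 141. No group differed from fresh cells past the threshold. BIO-then-DMSO aggregates were 2.95-fold higher than 48-h BIO aggregates (log2 difference 1.56 ± 0.36 SE, adjusted p = 0.00482). Lyz2 was also lower after 48 h than 24 h of BIO (log2 difference -1.10 ± 0.36 SE, adjusted p = 0.0388), a call lost without any 24-h array or 48-h replicates 1 or 3 (adjusted p = 0.0555 to 0.148). It was higher in BIO aggregates than in dispersed BIO cells (log2 difference 1.31 ± 0.36 SE, adjusted p = 0.0208), a call lost without dispersed replicate 1 or aggregate replicate 2 (adjusted p = 0.0947 and 0.0758).

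Tyrobp, the signalling adaptor DAP12, read 68.4, 12.9 and 40.1 in dispersed BIO cells and 94.5, 91.1 and 86.7 in dispersed DMSO cells, at least 1.82-fold lower (log2 difference -1.43 ± 0.43 SE, adjusted p = 0.0183). Its level in BIO aggregates, 77.6, 124 and 109, was at least 2.04-fold higher than in dispersed BIO cells (log2 difference 1.59 ± 0.43 SE, adjusted p = 0.0187). Both calls were lost without dispersed BIO replicate 2, at 12.9 (log2 difference -0.78, adjusted p = 0.0888; log2 difference 0.94, adjusted p = 0.0687), and the first also without dispersed DMSO replicate 1 (adjusted p = 0.0508) and the second without aggregate replicate 2 (adjusted p = 0.0701). Against fresh cells, at 56.04 to 109, no group was called.

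Cd68, a lysosomal protein of macrophages, rose in both 24-h BIO groups. It read 87.4, 179.9 and 124 in BIO-then-DMSO aggregates, 102, 106 and 72.3 after 48 h of BIO, 179.9, 203 and 257 in 24-h BIO aggregates and 134, 127 and 124 in DMSO aggregates. Dispersed cells read 206, 205 and 242 in BIO and 141, 129.6 and 179 in DMSO, and fresh cells 132, 103 and 81.4. Both 24-h BIO groups lay above all fresh arrays, by 2.03-fold in aggregates (log2 difference 1.02 ± 0.24 SE, adjusted p = 0.0032) and 2.09-fold in dispersed cells (log2 difference 1.06 ± 0.24 SE, adjusted p = 0.00292). With the beta-actin control added to the fit, the call in aggregates was lost (adjusted p = 0.1002). After 48 h of BIO Cd68 was 2.28-fold lower than after 24 h (log2 difference -1.19 ± 0.24 SE, adjusted p = 0.00172), a call lost with the Gapdh ratio as a covariate (adjusted p = 0.0602). In aggregates BIO was 1.64-fold above DMSO (adjusted p = 0.0303), a call lost without any DMSO array or BIO replicates 2 or 3 (adjusted p = 0.055 to 0.122). BIO-then-DMSO was 1.68-fold below 24-h BIO (adjusted p = 0.0287), a call lost without BIO replicate 2 or 3 or BIO-then-DMSO replicate 1 or 3 (adjusted p = 0.0583 to 0.146). Both were lost with the deposited scaling (log2 difference 0.65, adjusted p = 0.0631; log2 difference -0.56, adjusted p = 0.132).

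Cx3cr1, the fractalkine receptor of resident macrophages, read 43.4, 50.5 and 49.5 after 48 h of BIO and 116, 105 and 108 in fresh cells, 2.27-fold lower (log2 difference -1.18 ± 0.30 SE, adjusted p = 0.00638). It was 1.87-fold lower than in 24-h BIO aggregates, at 133, 75.6 and 72.7 (adjusted p = 0.0455), a call lost without 24-h replicate 1 or 2, or any 48-h array (adjusted p = 0.053 to 0.206). Dispersed BIO cells, at 46.02, 49.5 and 103.9, and BIO-then-DMSO aggregates, at 77.2, 80.8 and 66.2, also lay below every fresh array, without a call. The DMSO groups at 24 h read 55.6 to 127. Another Cx3cr1 probe set read 1.99 to 6.25 over all arrays, under background. Ptprc, the leukocyte phosphatase CD45, read 115, 127 and 143 in BIO-then-DMSO aggregates and 39.6, 30.2 and 23.5 after 48 h of BIO, at least 3.01-fold higher (log2 difference 2.04 ± 0.66 SE, adjusted p = 0.0383). That call was lost without any single array of the 6 (adjusted p = 0.0537 to 0.11), although the groups did not overlap. In fresh cells Ptprc read 95.8, 49.4 and 55.2, and no group was called against them. A second Ptprc probe set was called higher in 5 of 6 groups, yet every group mean lay below background.

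Laptm5, a lysosomal membrane protein of blood cells, was read differently by its probe sets. The probe set used read 177 to 349.5 over all arrays with no call. Another read 27.2, 2.52 and 11.6 after 48 h of BIO and 341, 259 and 394 in fresh cells, and was called lower in all 6 comparisons with fresh cells (log2 differences -4.93 to -2.28, p-values adjusted over 45101 probe sets of 0.000125 to 0.0316). A further one read 86.2 to 228 in culture and 68.9 to 87.6 in fresh cells, called higher in 5 of 6. Fcer1g, the Fc receptor gamma chain, read 9.24 to 84.1 with no call.

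**Figure D4:**
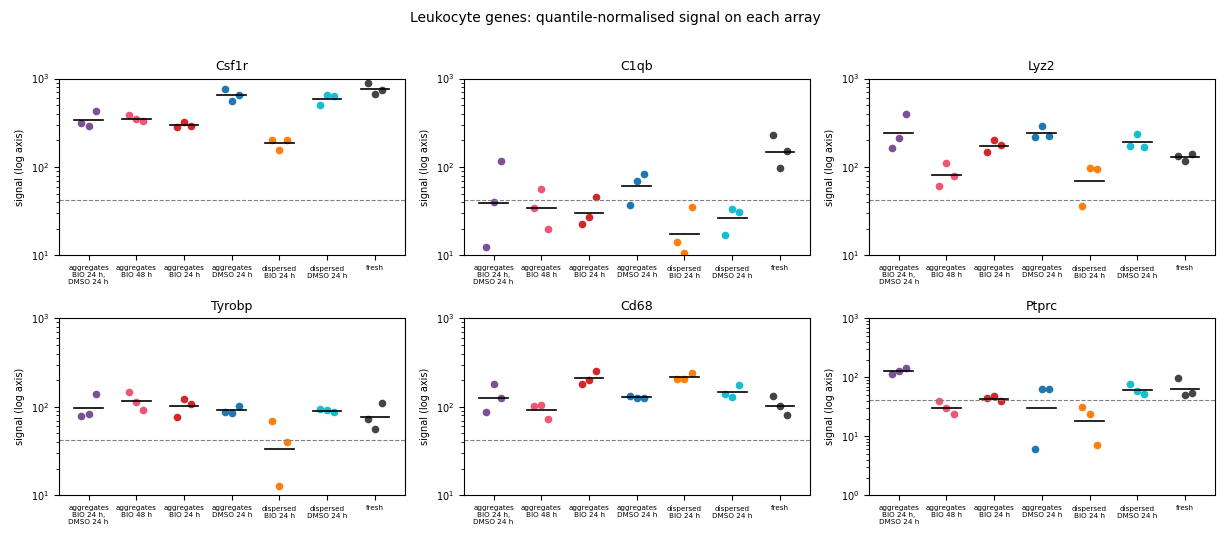
Quantile-normalised signal on a log axis for 6 leukocyte genes, with 1 point per array, 7 groups of 3 arrays, a black bar at the mean of log2(signal + 1) and a dashed line at background. Csf1r is low in the 4 groups that had BIO, C1qb is highest in fresh cells, Lyz2 and Tyrobp are lowest or among the lowest in dispersed BIO cells, and Cd68 is highest in the BIO groups at 24 h.

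**Figure D5:**
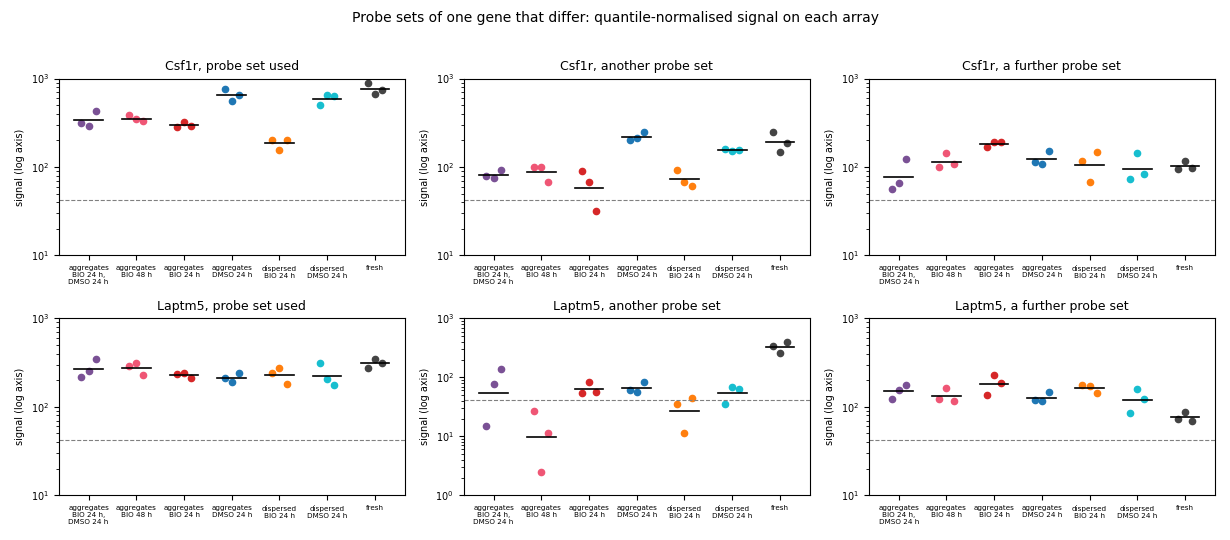
Quantile-normalised signal on a log axis for 3 probe sets each of Csf1r (top) and Laptm5 (bottom), with 1 point per array, 7 groups of 3 arrays, a black bar at the mean of log2(signal + 1) and a dashed line at background. The first 2 probe sets of Csf1r fall with BIO and the remaining one does not. Against fresh cells, those of Laptm5 show in turn no call, lower levels in all 6 cultured groups and higher levels in 5 of 6.

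As a group, 0 to 4 of 12 leukocyte members (0 to 33.3%) were called lower than fresh cells, and 0 to 1 higher, where 11.8 to 18.3% of all genes were lower. Their median log2 difference was -0.87 after 48 h of BIO and -1.04 in dispersed BIO cells, against 0.08 and -0.0007 for all genes, and -0.12 in DMSO aggregates, against 0.10. Of 20 further leukocyte genes, 2 to 5 (10 to 25%) were called lower and 0 to 2 higher. Their median stood closer to all genes, at -0.09 after 48 h of BIO, -0.55 in dispersed BIO cells and 0.13 in DMSO aggregates. Ctss, cathepsin S of antigen-presenting cells, read 32.5, 12.9 and 69.01 after 48 h of BIO and 566, 514 and 524 in fresh cells, at least 10.6-fold lower (log2 difference -4.07 ± 0.62 SE, adjusted p = 7.96e-05; log2 difference -3.47, adjusted p = 0.000592 without 48-h replicate 2). Mpeg1, a macrophage pore protein, read 7.92, 3.87 and 5.36 in dispersed BIO cells and 98.2, 47.01 and 128 in fresh cells, at least 1.99-fold lower (log2 difference -3.71 ± 0.63 SE, adjusted p = 0.000318). Pf4, a chemokine of platelets and macrophages, read 96.4, 34 and 10.9 in dispersed BIO cells and 354, 170.3 and 291 in fresh cells, at least 4.63-fold lower (log2 difference -2.92 ± 0.81 SE, adjusted p = 0.0128), a call lost without dispersed BIO replicate 3 (log2 difference -2.16, adjusted p = 0.077) and moved without replicate 1 (log2 difference -3.68, adjusted p = 0.00439).

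Mast cells, which also carry Fcer1g, were followed with 9 genes, of which 0 to 3 were called higher and 0 to 2 lower than fresh cells (0 to 44.4% called in either direction, where 25.3 to 33.7% of all genes were). Ms4a2, a chain of their IgE receptor, read 2689, 2744 and 962 in BIO-then-DMSO aggregates and 7.43 to 40.1 in the 3 groups that ended in BIO. It was 4954, 4988 and 5279.6 in DMSO aggregates and 4902, 4389 and 5067 in dispersed DMSO cells, against 56.3, 37.5 and 27.6 in fresh cells. The rise in DMSO aggregates was at least 107-fold (log2 difference 6.99 ± 0.50 SE, adjusted p = 2.35e-08). The other defining mast cell genes showed no such range. Fcer1a read 2.31 to 53.95, Mcpt4 4.30 to 17.3, Cma1 10.3 to 97.7, Cpa3 17.03 to 154 and Tpsb2 25.2 to 142 over all arrays. Kit, also used by other cell types, read 1685, 1603 and 1437 in dispersed DMSO cells and 386, 366 and 321 in fresh cells, 4.39-fold higher (log2 difference 2.14 ± 0.21 SE, adjusted p = 6.59e-07). Hdc, histidine decarboxylase, read 4.48, 2.32 and 6 after 48 h of BIO and 388, 20.4 and 13.4 in fresh cells, at least 2.09-fold lower (log2 difference -3.29 ± 0.92 SE, adjusted p = 0.0107). Only 1 fresh array, the first, lay above background, and without it the difference was log2 difference -1.80, adjusted p = 0.0346.

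Set directly against each other, the cultures differed in 0 to 7 of 30 members (0 to 23.3%), a share below, near or above that of all genes. BIO against DMSO gave 3 higher and 1 lower in 24-h aggregates (Ramp2, Tek, Cd68; Csf1r), where 30% of all genes were called, and 1 higher and 3 lower in dispersed cells (Alas2; Csf1r, Lyz2, Tyrobp), where 28.7% were. Aggregates against dispersed cells gave 6 higher and 1 lower in BIO (background 17.2%), and none in DMSO by limma (background 2.62%), where 3 members had an unadjusted p below 0.05. Of the genes at large called between BIO aggregates and dispersed BIO cells, 48.5% were higher with the deposited scaling, 84.7% with centring and 73.01% with quantile normalisation. For BIO against DMSO aggregates these shares were 47.1% with the deposited scaling and 58.4% with quantile normalisation, and for DMSO aggregates against dispersed DMSO cells 38.97, 86.3 and 70.02%.

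On the second day, BIO-then-DMSO against 48 h of BIO gave 2 members higher and 4 lower (background 20.4%), a share of members near that of all genes. The lower ones were Ramp2, Tek, Flt1 and Egfl7, and of the 18 further endothelial genes 2 were lower and 1 higher. BIO-then-DMSO against 24-h BIO gave 1 higher and 3 lower (background 24.9%; 52.6% of calls higher with the deposited scaling, 34.8% with quantile normalisation), and 48 h against 24 h of BIO gave 2 and 4 (background 20.8%). The interaction of BIO with aggregation called no member by limma (background 1.57%), and 7 had an unadjusted p below 0.05. Those counts describe comparisons that share groups, and no difference between comparisons was tested other than by the interaction.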

How the data were processed

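Gene expression was measured on 21 one-colour oligonucleotide arrays of 45101 probe sets, 3 in each of 7 groups, grouped by the labels. The authors deposited linear signal intensities of 0.1 to 18025.33, made by software and with a scaling not given in the sources used here. Per the labels' protocols, RNA went through 2 rounds of amplification before biotin labelling.

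Values were turned to log2(value + 1) and quantile normalised. Probe sets with 1 gene name (34945; 932 had several, 9160 none and 64 were controls) were kept, the one with the highest mean per gene, leaving 18193 genes. A single limma fit (version 3.58.1, R 4.3.3) of all 21 arrays estimated a mean for each group, with 14 residual degrees of freedom, and gave 14 comparisons. The smallest fold of a gene below background in 1 group was taken with arrays below it raised to it. Alternatives were the deposited scaling, centring, a dim-gene filter, log2(value + 16), other probe sets, only the groups compared, array weights, a trended prior, a replicate block, 2 array-quality covariates, a 2-fold minimum and leaving out each array. Single probe sets were fitted as an alternative added after seeing the data. The fit was tested on simulated data. Figures used matplotlib 3.10.9 in Python 3.11.15.

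Members and lists were chosen with earlier results of these data known. Members past the threshold without overlap are given array by array, and at most 3 genes per further list are named, those with the largest difference from fresh cells, plus mast cell genes and progenitor, stromal and ureteric checks. Those named by that difference are given for the comparison in which it was largest. The replicate numbers did not pair the arrays. The 3 arrays per group limit the precision.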

Additional observations from a re-analysis of the deposited data

How the results depend on the processing

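Of 1403 alternative values for the 83 member differences called, 1191 kept direction and call, 211 kept only the direction and 1 turned, Esam in 48-h against 24-h BIO aggregates, at 0.23 with the Gapdh 3′ to 5′ ratio as a covariate. Counts of members called moved by over 1.5 times in these cases. Centring on the median gave 1 for DMSO aggregates against dispersed DMSO cells (0 otherwise). Array weights gave 8 for dispersed BIO against dispersed DMSO cells (4 otherwise) and 1 for the interaction (0 otherwise). For BIO aggregates against dispersed BIO cells (7 otherwise) the counts were 3 with only the groups compared, 2 with the Gapdh ratio, 0 with the beta-actin control and 4 with a 2-fold minimum. For 48-h against 24-h BIO aggregates (6 otherwise) they were 2, 0 and 3 with the first 3 of these. With the Gapdh ratio, DMSO aggregates against fresh cells gave 3 (6 otherwise) and BIO-then-DMSO against 24-h BIO aggregates 2 (4 otherwise). With the beta-actin control, the counts were 0 for that last comparison, 3 for 24-h BIO aggregates against fresh cells (6 otherwise) and 2 for BIO against DMSO aggregates (4 otherwise). The cause was not tested.

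Leaving out each array in turn gave 6 to 10 calls for dispersed DMSO cells against fresh cells, 9 to 13 for dispersed BIO, 4 to 6 for DMSO aggregates, 5 to 7 for 24-h BIO, 6 to 9 for BIO-then-DMSO and 7 to 12 for 48-h BIO. It gave 3 to 5 for BIO against DMSO in dispersed cells, 3 to 4 in aggregates, 3 to 8 for aggregates against dispersed cells in BIO, 0 to 1 in DMSO and 0 to 1 for the interaction. For the second day it gave 4 to 8, 2 to 5 and 3 to 5 (BIO-then-DMSO against 48-h BIO and against 24-h BIO, and 48-h against 24-h BIO). Deviations of same-numbered arrays correlated at -0.088 to 0.051 (63 pairs) and 2 of 21 arrays correlated best with their own number, so the numbers do not pair them. With the replicate number as a block, 79 of 83 calls were kept, and the lost ones were Cdh5 and Hbb-bh1 after 48 h of BIO against fresh cells, Ptprc in BIO-then-DMSO against 48-h BIO and Cx3cr1 in 48-h against 24-h BIO. With the mean of all probe sets 69 of 83 calls were kept, those lost being of Egfl7, Cdh5, Hbb-bh1, C1qb, Csf1r, Cx3cr1 and Ptprc. Genes of low signal limit these results: 7 members had no group mean above background.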
